A study of Danio rerio with 20 samples.

Results

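The sites described here are Raraa (retinoic acid receptor alpha a) peaks that were called in atRA-treated zebrafish gastrulae, were not called in untreated gastrulae, and were called in untreated embryos at the later 5 somites stage. They were selected on these calls and numbered 1530 of the 59938 peaks on chromosomes 1 to 25 in the Raraa atRA replicate 2 list, which served as the anchor. A member overlapped, by at least 1 bp, a peak of Raraa atRA replicate 1 and of both 5 somites lists, and no peak of either Raraa control list at 80% epiboly. Retinoic acid receptors are nuclear receptors that sit on DNA as partners of retinoid X receptors. Without ligand they recruit corepressors, and with all-trans retinoic acid (atRA) they exchange these for coactivators. In vertebrate embryos retinoic acid made in the trunk mesoderm patterns the hindbrain and spinal cord, in large part through the anterior Hox genes.

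All libraries came from whole wild-type embryos and were made by ChIPmentation, in which Tn5 transposase tags the immunoprecipitated chromatin. Treatment with 0.1 µM atRA was given at 30% epiboly, and these embryos were profiled at 80% epiboly, late in gastrulation, with Raraa, Hoxb1b, Meis2b or Sox3 antibodies. Untreated control embryos at 80% epiboly were profiled with the same 4 antibodies, and Raraa alone was profiled in untreated embryos of 5 somites and of 24 hpf (hours post fertilisation). Titles and stage labels give these later stages, whereas a treatment text shared by all samples names 80% epiboly as the time of collection; the stage labels were followed. Each of the 10 groups had 2 libraries and 1 peak list per library. Nothing in the labels says that replicates came from separate clutches, so the spread between them may be technical. In a whole embryo, binding in more cells and stronger binding per cell cannot be told apart. The gene nearest to a site and the sequence under it were not analysed here.

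Sequencing depth is unknown, and the background recovered from the peak values, in fragments covering a base, was used as its index. The lists held 23920 to 254915 peaks on chromosomes 1 to 25, and the background ranged from 0.199 to 2.17. Both extremes of peak number were Raraa gastrula lists: control replicate 1 was the shortest (background 0.394) and atRA replicate 1 the longest (background 2.17). The anchor, atRA replicate 2, had a background of 0.606, against 0.927 in control replicate 2. Summits of the members, rescaled to the background of control replicate 2, would have passed the weakest p of that list at all 1530 members by their anchor peaks and at 1321 (86.3%) by their atRA replicate 1 peaks. At the background of control replicate 1 these counts were 1152 (75.3%) and 505 (33.0%). Absence from control replicate 1 therefore carried less information than absence from control replicate 2. Rescaling the anchor to control replicate 2 raised summits and background by a factor of 1.53. The count of all 1530 was thus fixed in advance and is no check of that control. The part of depth in the membership itself was not tested.

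The rule used 6 Raraa lists, so the following counts describe the choice and are not tested. Of the anchor peaks, 30840 overlapped a peak of atRA replicate 1, and 15093 of these had no control peak (25.2% of all anchor peaks met this contrast). The 1530 members were 10.1% of these 15093 atRA-gained sites. Another 3940 of the 15093 were called in 1 of the 2 lists at 5 somites and 9623 in neither. By contrast, of the 4011 sites called in both atRA and both control lists, 2735 (68.2%) were called in both 5 somites lists. These 2735 are called constant sites below, and the 9623 are called atRA-only sites. Seen from the later stage, 14904 peaks of 5 somites replicate 1 were also in replicate 2 and in neither gastrula control. Of these, 7959 (53.4%) overlapped a peak of atRA replicate 1 and 1927 (12.9%) a peak of atRA replicate 2, while 1565 (10.5%) overlapped both. Another 3517 peaks of 5 somites replicate 1 were in replicate 2 and in both gastrula controls. Of these, 97.1% overlapped atRA replicate 1, 77.4% atRA replicate 2 and 76.8% both. The lists of atRA replicates 1 and 2 held 254915 and 59938 peaks, and the part of their length in these shares was not tested. Most sites gained with atRA were not called in both lists at 5 somites, and most sites first called at 5 somites were not called in both atRA lists. The count leaned on single lists: it was 4571 without control replicate 2, 7636 without atRA replicate 2 (atRA replicate 1 then being the anchor), and 3385 or 3615 without 5 somites replicate 1 or 2. The mirrored rule, anchored on control replicate 1 and requiring both controls, both 5 somites lists and no atRA peak, gave 96 sites of 23920. It asks for a peak in the shortest of all lists and for none in the longest, atRA replicate 1. Its count therefore cannot be compared with the number of members.

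The members were mostly modest peaks. In the anchor their fold enrichment, the authors' ratio of the summit to the local background, ranged from 2.93 to 14.0 with a median of 4.93, against a median of 4.53 over all anchor peaks. Median summit coverage was 8 fragments in atRA replicate 2 and 19 in the deeper atRA replicate 1. At 5 somites the median fold enrichment was 5.46 in replicate 1 and 5.31 in replicate 2. The mean log2 fold enrichment was higher with atRA at 550 members and higher at 5 somites at 980. The ratio was taken to have 1 added to both summit and background, so it also varies with depth. The background was 2.17 and 0.606 in atRA replicates 1 and 2, against 0.538 and 0.393 at 5 somites. Its part in these counts, and in comparisons of stages at single sites below, was not tested. Over the anchor peaks, medians were 4.41 (30840 called) and 4.53 (all 59938) in atRA replicates 1 and 2. At 5 somites they were 5.29 (14608 called) and 5.15 (14467 called) in replicates 1 and 2. These medians cover different sets of sites and are no comparison site by site. All these lists were used by the rule. Both atRA libraries lay above both 5 somites libraries at 198 members and below both at 464. At the other members the ranges of the treated gastrulae and of the 5 somites embryos overlapped. With 2 libraries in each group such overlap is common and does not show that the groups were alike. Spearman's rho over the 1530 members, which share libraries and depth, was 0.39 between the atRA replicates and 0.28 between the 5 somites replicates. Between treatment and stage it ran from 0.12 to 0.38.

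**Figure D1:**
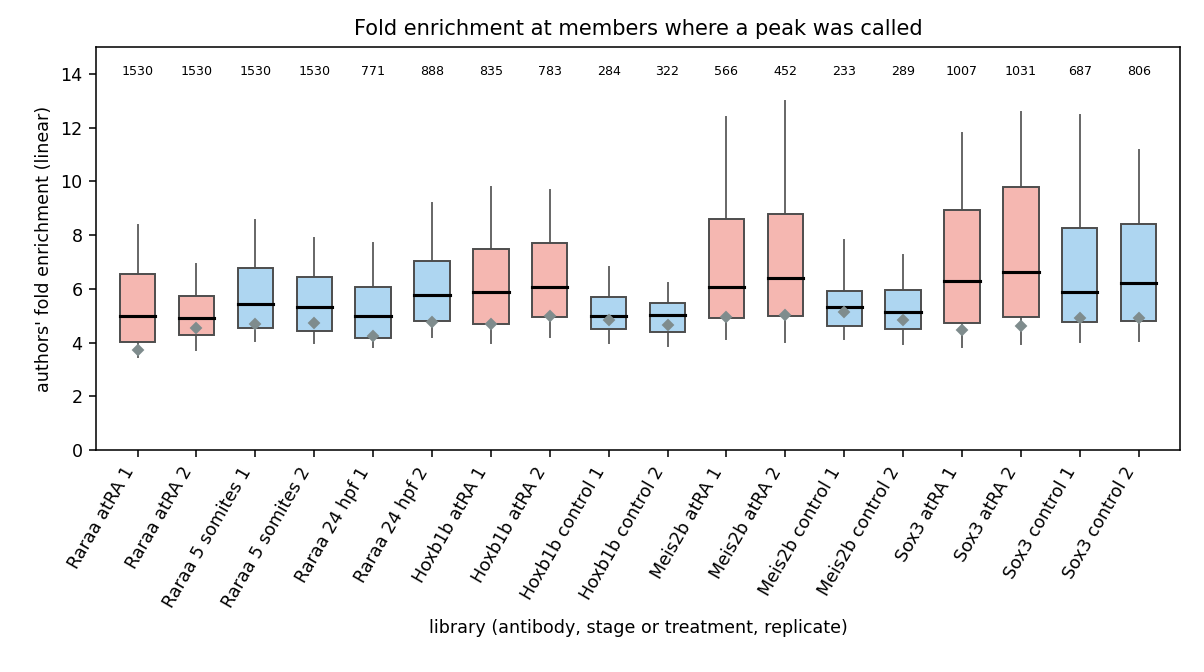
Authors' fold enrichment (linear axis) of the members in each library where a peak was called, with the number of called members printed above. Boxes span the quartiles, lines the 10th to 90th percentiles, black bars mark medians, diamonds the median of all peaks of that list, red is atRA and blue untreated. Median folds of the members lie above the median of their list in every library drawn and reach 6.63 in Sox3 atRA replicate 2; against all anchor peaks they are not higher in most controls of the other antibodies, for example 4.99 against 5.13 in Hoxb1b control replicate 1.

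The members were spread over the genome. They made up 1.80% of the anchor peaks on chromosome 14, the lowest share, and 3.19% on chromosome 8, the highest. Of the 1530, 1393 (91.0%) lay more than 20000 bp from any other member, 61 pairs lay closer, and 5 groups held 3 members each. Spacing was not counted for other sites, so whether members lie closer together than those was not tested. Few members shared one peak of another list: 22 shared a peak of atRA replicate 1 with another member. Many lay near a control peak that did not touch them, with 499 (32.6%) within 1000 bp of a peak of control replicate 2 and 108 (7.06%) within that distance of control replicate 1. For the atRA-only sites these shares were 30.3% and 6.71%.

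The weakest and nearest excluded sites show the edge of the rule, which is the authors' q threshold. The 2 members with the weakest anchor peaks, on chromosome 9 (11497426 to 11497616) and chromosome 1 (4720394 to 4720543), both had a q of 0.0358 there, from summits covered by 5 and 4 fragments. The site on chromosome 9 was stronger elsewhere, with fold enrichments of 6.75 in atRA replicate 1 and of 6.77 and 8.62 at 5 somites. On the other side, the site on chromosome 21 from 26763686 to 26764253 had fold enrichments of 10.4 and 10.9 in the atRA replicates. It was kept out by a peak of 5 fragments in control replicate 2 with a q of 0.0493 and a fold enrichment of 2.67. The site on chromosome 18 from 20736940 to 20737305 was kept out by 4 fragments in control replicate 1 (q of 0.0260).

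The 24 hpf lists took no part in the choice. Raraa was called at 771 members (50.4%) in 24 hpf replicate 1 and at 888 (58.0%) in replicate 2, a mean of 54.2% ± 5.41 (SD, n = 2). Over all anchor peaks the same libraries held 21.6% and 26.4%, with a mean of 24.0% ± 3.39 (SD, n = 2). Both libraries were called at 528 members (34.5%), against 12.2% of all anchor peaks and 22.2% of the 30840 sites of both atRA lists. At least 1 of them was called at 1131 members (73.9%), against 35.8% of all anchor peaks and 54.2% of the sites of both atRA lists. In both 24 hpf lists the members' share lay between those of the constant sites, 83.4% and 89.5%, and of the atRA-only sites, 14.8% and 16.6%. These shares are descriptions without a test, because the members were chosen with earlier results known.

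Occupancy at 24 hpf followed occupancy at 5 somites among the atRA-gained sites. Both 24 hpf lists were called at 34.5% of the members, at 14.5% of the 3940 sites found in a single 5 somites list, and at 3.92% of the 9623 atRA-only sites. The median anchor fold enrichment of these groups was 4.93, 4.65 and 4.46, so they also differed in strength. Members also lay above the atRA-only sites within each quartile of anchor fold enrichment. In the weakest quartile, 27.9% of 265 members and 3.18% of 2359 atRA-only sites had both 24 hpf peaks, and in the strongest 42.2% of 569 members and 5.38% of 2137 atRA-only sites. The corresponding shares of all anchor peaks were 6.74% in the weakest quartile and 26.2% in the strongest. The quartiles took account of the anchor list alone. In atRA replicate 1 the median fold enrichment was 4.99 for the members and 3.83 for the atRA-only sites. The part of this strength in the 24 hpf shares was not tested.

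**Figure D2:**
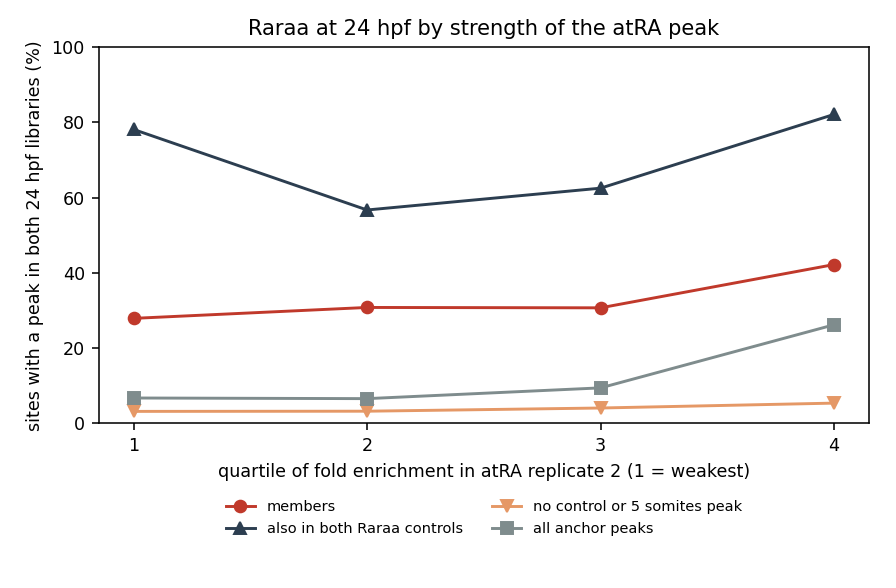
Percentage of sites with a Raraa peak in both 24 hpf libraries (vertical axis) by quartile of the authors' fold enrichment in atRA replicate 2 (horizontal axis, cut at 4.07, 4.53 and 5.24). Points are the members, the constant sites, the atRA-only sites and all anchor peaks; the members run from 27.9% in the weakest to 42.2% in the strongest quartile and lie above the atRA-only sites in each.

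Members with and without a later peak differed in the height of some Raraa peaks and in the presence of other factors. The 528 members with both 24 hpf peaks had a median fold enrichment of 5.98 in atRA replicate 1, against 4.78 for the 603 members with 1 and 4.27 for the 399 with none. In the anchor, atRA replicate 2, the medians were closer, at 5.02, 4.95 and 4.65. In 5 somites replicate 1 they were 6.15, 5.21 and 5.13. Hoxb1b was called, as a mean over its 2 atRA libraries, at 59.9% of the members with both 24 hpf peaks and at 39.7% of those with none. For Meis2b these means were 39.7% and 22.7%, and for Sox3 74.1% and 55.0%. In controls the differences between these members were smaller, with 20.9% and 17.0% for Hoxb1b, 19.8% and 14.0% for Meis2b, and 49.2% and 44.7% for Sox3. The same relation was wider over all anchor peaks. Both 24 hpf peaks were present at 41.2% of the members with both Hoxb1b atRA peaks and at 28.6% of those with neither, and over all anchor peaks at 35.2% and 4.21%. For Meis2b these shares were 43.2% and 29.8% of members, and 42% and 6.17% of all anchor peaks. For Sox3 they were 39.7% and 25.1% of members, and 30.9% and 3.03% of all anchor peaks.

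The other 3 antibodies recognise regulators that act with or beside retinoic acid signalling in the neural plate. Hoxb1b is an anterior Hox protein with a role in early hindbrain patterning, Meis2b is a TALE homeodomain protein of a family that binds DNA together with Hox and Pbx proteins, and Sox3 is a SoxB1 factor of neural progenitors. None of their 12 lists was used by the rule.

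Hoxb1b was called at 835 (54.6%) and 783 (51.2%) members in atRA replicates 1 and 2, against 284 (18.6%) and 322 (21.0%) in control replicates 1 and 2. The shares of all anchor peaks in these libraries were 31% and 27.8% with atRA, against 10.7% and 12.1% in controls. Both atRA libraries lay above both controls, with means of 52.9% ± 2.40 and 19.8% ± 1.76 (SD, n = 2 each), a difference of 33.1 percentage points. Over all anchor peaks the means were 29.4% with atRA and 11.4% in controls, so the ratio of treated to control was 2.67 at the members and 2.58 over all anchor peaks. At the constant sites the difference in means was 40.7 points, larger than at the members, but the ratio was smaller, at 1.89. At the atRA-only sites the difference was 20.8 points and the ratio 3.94, so the order depends on the measure. Both Hoxb1b atRA lists and neither control held a peak at 382 members (25%), against 12% of all anchor peaks. The share of constant sites with this pattern was 25.9%, so the gain was not particular to the members. The opposite pattern occurred at 23 members (1.5%), against 0.449% of all anchor peaks. The Hoxb1b background was 0.910 and 0.533 fragments covering a base with atRA, against 0.235 and 0.286 in controls, and its part in this difference was not tested.

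Meis2b was called at 566 (37.0%) and 452 (29.5%) members in atRA replicates 1 and 2, against 233 (15.2%) and 289 (18.9%) in control replicates 1 and 2. Over all anchor peaks these shares were 19.9% and 15.7% with atRA, against 8.62% and 11.4% in controls. The means were 33.3% ± 5.27 with atRA and 17.1% ± 2.59 in controls (SD, n = 2 each), 16.2 points apart, and both atRA libraries lay above both controls. The ratio was 1.95 at the members and 1.77 over all anchor peaks. Both atRA lists and neither control were called at 185 members (12.1%), against 5.4% of all anchor peaks, and the opposite pattern at 23 (1.5%), against 0.562%. At the constant sites the first pattern was more frequent, at 16.5%, and the means were 25.1 points apart, but the ratio was smaller, at 1.59. The background was 0.494 and 0.256 with atRA, against 0.199 and 0.267 in controls, and its part in this difference was not tested.

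Sox3 was already called at many members without treatment. It had a peak at 1007 (65.8%) and 1031 (67.4%) members in atRA replicates 1 and 2, against 687 (44.9%) and 806 (52.7%) in control replicates 1 and 2. Over all anchor peaks these shares were 37.1% and 36.7% with atRA, against 24.8% and 31.4% in controls. Means were 66.6% ± 1.11 with atRA and 48.8% ± 5.50 in controls (SD, n = 2 each), 17.8 points apart, and both atRA libraries lay above both controls. The ratio was 1.37 at the members and 1.31 over all anchor peaks. Both Sox3 atRA lists and neither control were called at 154 members (10.1%), against 4.32% of all anchor peaks, and the opposite pattern occurred at 14 (0.915%), against 0.619%. At the constant sites the first pattern held at 6.91%, and the means were 15.3 points apart. All 4 Sox3 libraries were called at 480 members (31.4%), against 17.2% of all anchor peaks, whereas Hoxb1b filled all 4 of its libraries at 60 members (3.92%), against 2.86%, and Meis2b at 47 (3.07%), against 2.52%. Sox3 background was 1.12 and 1.02 with atRA, against 0.425 and 0.969 in controls, and its part was not tested. The peak names in both Sox3 control lists carry the number 2, although the labels call them replicates 1 and 2. They are not the same list: of 103127 and 105524 peaks, 6 intervals were identical.

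**Figure D3:**
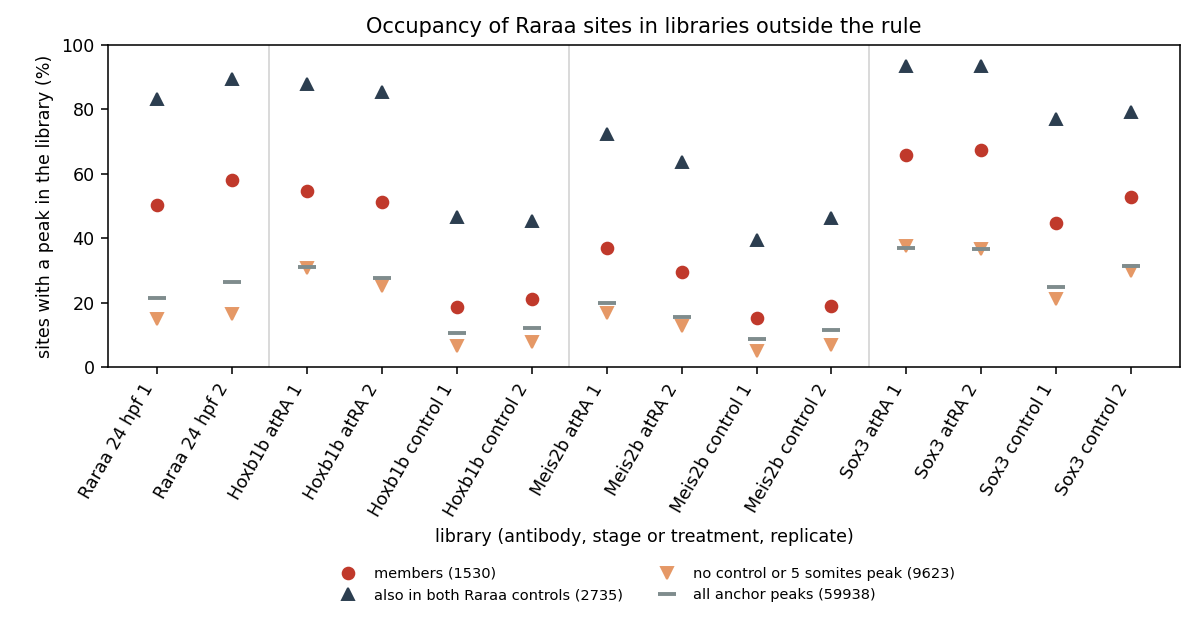
Percentage of sites with a peak (vertical axis) in each of the 14 libraries that the rule did not use (horizontal axis), for the 1530 members, the 2735 constant sites (also in both Raraa controls), the 9623 atRA-only sites (no control or 5 somites peak) and all 59938 anchor peaks. Members lie between constant and atRA-only sites in every library, and each atRA library lies above both controls of its antibody, as it does over all anchor peaks.

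Sites were also chosen without the Raraa atRA replicate 2 list, which drops its peak as a requirement and makes replicate 1 the anchor. The 3 differences were then 13.1 points for Hoxb1b, 3.41 for Meis2b and 8.29 for Sox3. Their SDs, which combine the spread of treated and control libraries, were 3.30, 5.85 and 3.80 points. The Meis2b difference was thus smaller than its SD. With replicate 1 as the anchor and both lists still required, the 3 differences were 31.8, 15.5 and 18.2 points. At the 449 members whose Raraa peaks would all have been callable at the background of control replicate 1 they were 53.2, 33.9 and 31.5 points. This setting keeps the stronger Raraa peaks, and the differences were not computed over equally strong anchor peaks. Both Hoxb1b atRA lists were called at 13.1% of all anchor peaks in the weakest quartile of anchor fold enrichment and at 42% in the strongest.

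Against the sites found in both Raraa atRA lists, the members' shares for Hoxb1b and Meis2b were close. Both Hoxb1b atRA lists were called at 636 members (41.6%), against 38.8% of the 30840 sites of both Raraa atRA lists and 21.5% of all anchor peaks. For Meis2b the shares were 21.5% (329 members), against 20.5% and 11.1% in the same order, and for Sox3 56.6% (866 members), against 49.4% and 29%. Both Hoxb1b controls were called at 6.8% of the members, against 6.86% of the sites of both Raraa atRA lists and 3.72% of all anchor peaks. For the Meis2b controls these shares were 5.88%, against 6.74% and 3.68%, and for the Sox3 controls 34.3%, against 33% and 19%. Most of the excess over all anchor peaks was therefore also present in sites chosen only for being called in both Raraa atRA lists. The share at 24 hpf, 34.5% of the members against 22.2% of those sites, was farther from it. Those 30840 sites include the members and also sites with a Raraa control peak, which members lack by the rule. Among the atRA-gained sites, none of which has a control peak, the members' shares were the highest. Both Hoxb1b atRA lists were called at 26.3% of the 3940 sites in a single 5 somites list and at 18% of the atRA-only sites. For Meis2b these shares were 11.9% and 7.77%, and for Sox3 39.7% and 27.6%.

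Few members had Raraa peaks alone. A peak of none of the 12 other libraries was found at 99 members (6.47%), against 36.9% of all anchor peaks and 15.4% of the sites of both Raraa atRA lists. The median member was called in 5 of the 12 libraries and the median anchor peak in 1. All 6 atRA libraries of the other antibodies were called at 270 members (17.6%), against 9.52% of all anchor peaks, and all 6 control libraries at 12 members (0.784%), against 1.04%. Counting an antibody as gained where both atRA and neither control library was called, 962 members (62.9%) were gained with none of the 3, 429 (28%) with 1, 125 (8.17%) with 2 and 14 (0.915%) with all 3. Hoxb1b alone was gained at 255 members (16.7%), against 8.52% of all anchor peaks, Sox3 alone at 93 (6.08%), against 3.07%, Meis2b alone at 81 (5.29%), against 2.52%, and Hoxb1b with Meis2b at 78 (5.1%), against 2.4%. The order of these patterns was the same over all anchor peaks. Over all anchor peaks, 82.2% were gained with none, 14.1% with 1, 3.36% with 2 and 0.287% with all 3. The constant sites were close to the members, with 60.7% gained with none, 30% with 1, 8.59% with 2 and 0.695% with all 3.

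The share of members with both 24 hpf peaks was higher where more of the other libraries were called. Both 24 hpf peaks were present at 23 of the 99 members with no other factor (23.2%), at 39.2% of the 390 members called in 7 to 9 other libraries, and at 44.1% of the 93 called in 10 to 12. Over all anchor peaks the range was wider, from 1.48% with no other factor to 58.7% with 10 to 12. Among anchor peaks the share was 19.1% with 4 to 6 of the other libraries and 34.2% with 7 to 9.

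**Figure D4:**
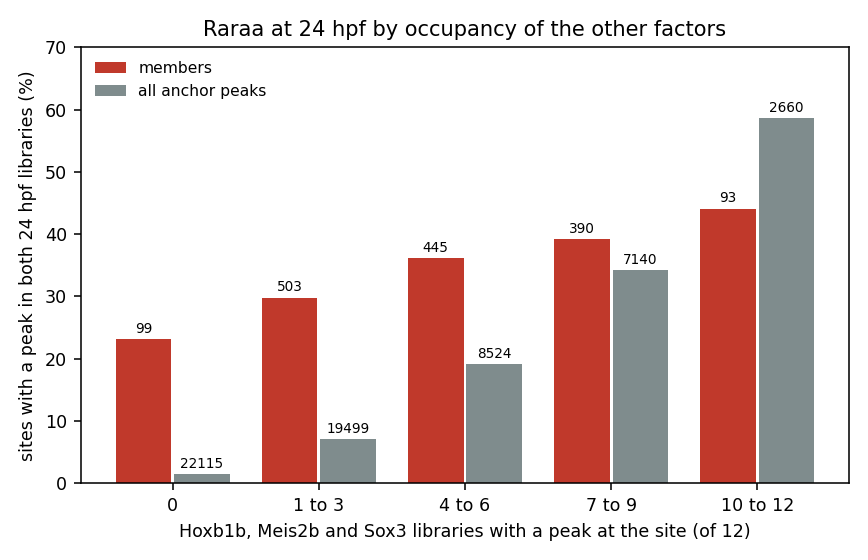
Bars give the percentage of sites with a Raraa peak in both 24 hpf libraries (vertical axis, from 0) by the number of Hoxb1b, Meis2b and Sox3 libraries, of 12, with a peak at the site (horizontal axis); the number of sites stands above each bar. Members run from 23.2% to 44.1% and all anchor peaks from 1.48% to 58.7%, crossing only in the last class.

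The 8 strongest members, ranked by p in both Raraa atRA lists, were examined singly. All coordinates are those of the anchor peak in GRCz10. Both Hoxb1b atRA libraries and neither Hoxb1b control held a peak at all 8, and both Sox3 atRA libraries at all 8. Both Meis2b atRA libraries held a peak at 6 of them, and Meis2b control replicate 1 at none. At least 1 Sox3 control was called at 7. These counts belong to peaks picked for strength. In the strongest quartile of anchor fold enrichment, a wider class, both Hoxb1b atRA lists were called at 42% of all anchor peaks. The shares of members and of constant sites in that quartile were 55.7% and 83.7%. For Sox3 the shares of all anchor peaks, members and constant sites there were 51.1%, 71.9% and 93.1%. For Meis2b they were 25.7%, 30.2% and 63%. Absence from both Hoxb1b controls was not counted by strength, nor was a peak in at least 1 Sox3 control. Sox3 control replicates 1 and 2 were called at 44.9% and 52.7% of all members, against 24.8% and 31.4% of all anchor peaks. For Meis2b control replicate 1 these shares were 15.2% and 8.62%.

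The first lay on chromosome 11 from 23575227 to 23575684. Raraa fold enrichment there was 14.9 and 14.0 in atRA replicates 1 and 2, with summits of 67 and 28 fragments, and no peak was called in either control. At 5 somites it was 5.68 and 7.57, and at 24 hpf 4.15 in replicate 1 with no peak in replicate 2. The atRA values are those by which the site was ranked. Hoxb1b gave 9.51 and 8.34 with atRA and no control peak, and Sox3 gave 11.6 and 13.8 with atRA, against 6.36 in control replicate 2 and no peak in control replicate 1.

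The second lay on chromosome 21 from 17696056 to 17696804. Raraa reached 11.7 and 11.4 with atRA, 13.8 and 10.5 at 5 somites, and 10 and 11.1 at 24 hpf. The 5 somites values spanned the atRA values, and both 24 hpf values lay below them. Meis2b had 10.9 and 15.6 with atRA and no control peak. Sox3 had 11.6 and 10.8 with atRA, against 4.94 and 7.53 in controls, with both atRA libraries above both controls.

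The third, on chromosome 23 from 13883545 to 13883998, had its highest Raraa value at the last stage. Raraa fold enrichment was 13.4 and 11.1 with atRA, 16.1 and 12.9 at 5 somites, and 12.5 and 17.4 at 24 hpf. The ranges of the 3 groups overlapped. Meis2b was not called there with atRA and had 6.17 in control replicate 2.

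The fourth, on chromosome 3 from 24025458 to 24025813, had the highest Hoxb1b and Meis2b values of the 8. Hoxb1b reached 16.9 and 18.5 and Meis2b 18.8 and 17.2 with atRA, and of the 6 controls of the other antibodies only Meis2b control replicate 2 had a peak (4.63). Sox3 had 15.2 and 13.6 with atRA. Raraa had 13 and 12.8 with atRA, 13.6 and 6.65 at 5 somites, and 7.56 and 10.4 at 24 hpf. It was the middle of 3 members within 23676 bp, a group that began at 24016840 and ended at 24040515. The first of the group already had a Meis2b peak in both controls, with fold enrichments of 14.6 and 15.7 with atRA, against 8.88 and 7.20 in controls, while the last had no peak in any control of the other antibodies.

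The remaining 4 lay on chromosome 7 (25108217 to 25108946), chromosome 10 (22709117 to 22709628), chromosome 14 (17558034 to 17558460) and chromosome 2 (605298 to 605727). Their Raraa fold enrichments ran from 8.11 to 14.0 with atRA and from 4.97 to 13.5 at 5 somites. The site on chromosome 2 had no 24 hpf peak, and that on chromosome 7 had 1 (4.47). The site on chromosome 14 had low 24 hpf values, 3.53 and 3.84, beside Hoxb1b values of 15.1 and 15.8 with atRA. Of the 70 members with both 24 hpf peaks and at least 2 antibodies gained, the 4 of best rank were those on chromosomes 21, 3, 10 and 14 named above. This combination was not counted over all anchor peaks, so the 70 cannot be read as particular to members.

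**Figure D5:**
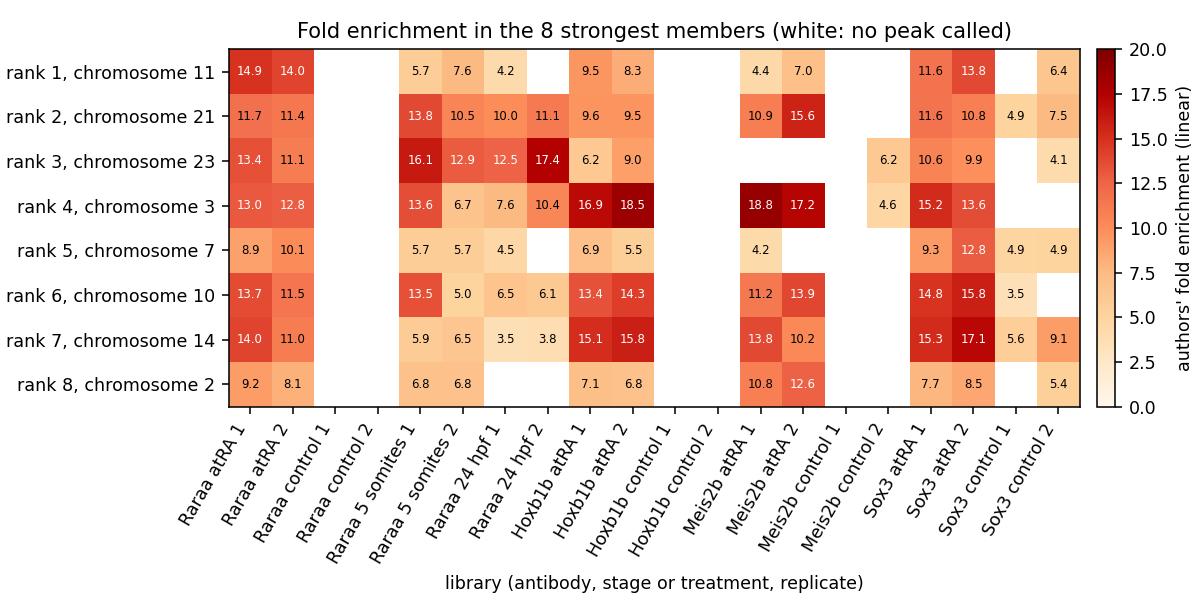
Authors' fold enrichment (colour scale, linear, value printed in each cell) of the 8 strongest members (rows, by rank) in all 20 libraries (columns); white cells had no peak. The Raraa control columns are empty by the rule, and the Hoxb1b control columns are empty as well, whereas both Hoxb1b atRA columns are filled at all 8, from 5.5 to 18.5.

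A few more regions were chosen after their values had been seen. Of the 14 members gained with all 3 other antibodies, 8 had both 24 hpf peaks. The same share was not counted over the 172 anchor peaks gained with all 3, so the 8 cannot be read as particular to members. The strongest of the 14 members, on chromosome 13 from 43325611 to 43326129, had a 24 hpf peak in replicate 1 only (6.42). The next, on chromosome 7 from 35269709 to 35270013, had both. On chromosome 7 Raraa had 11.1 and 9.62 with atRA, 16.9 and 16.5 at 5 somites, and 11.0 and 9.95 at 24 hpf. Both 5 somites values lay above those of the other groups. Meis2b gave 14.4 and 16.2 and Hoxb1b 10.8 and 10.2 with atRA, with no peak in any of the 6 controls of the other antibodies.

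Of the 99 members without any other factor, the strongest lay on chromosome 20 from 48321859 to 48322359. Raraa had 8.35 and 8.01 with atRA, 9.06 and 5.09 at 5 somites, and 9.61 and 4.47 at 24 hpf. The next, on chromosome 18 from 47678231 to 47678455, had 8.62 and 7.93 with atRA, 11.1 and 9.15 at 5 somites, and 8.74 and 7.05 at 24 hpf. At both sites the atRA values lay within or beside the range of the later stages. At the other end, 9 members (0.588%), against 0.901% of all anchor peaks, were called in all 12 other libraries. The strongest of these, on chromosome 14 from 7712049 to 7712462, carried a high Sox3 peak in every library, with 15.8 and 15.1 with atRA, against 24.2 and 17.0 in controls. Its Raraa values were 8.66 and 8.58 with atRA and 4.28 and 5.39 at 5 somites.

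Of the 5 groups of 3 members, the one on chromosome 19, from 21797497 to 21813220, held no other anchor peak, nor did that on chromosome 1. On chromosome 19 all 6 atRA libraries of the other antibodies were called at each of the 3. The first had Meis2b values of 11.1 and 12.3 with atRA, against 4.88 and 5.60 in controls. The second had peaks in no control of the other antibodies, and its Raraa values were 6.04 and 5.73 with atRA, 7.65 and 5.52 at 5 somites, and 6.21 and 9.07 at 24 hpf. These 3 sites neighbour each other and were counted as separate members throughout.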

How the data were processed

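Per the submitters' processing notes, Bowtie, SAMtools and MACS2 were used with the builds GRCz10 and danRer10; their settings, an input control and duplicate handling are not given in the sources used here. The authors deposited 1 peak list per library, called per library. Each peak has a deposited fold enrichment, the ratio of its summit to the background around it, and a deposited −log10 p and −log10 q at the summit; a deposited score, derived from q, was not used. The largest q in any list was 0.0500 when rounded.

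Lists were overlapped on chromosomes 1 to 25 with at least 1 bp. Where several peaks overlapped a site, the one with the best p gave the value. Summit pileup and background were solved together from fold enrichment and p for 100% of peaks (tolerance 0.002 in −log10 p), and the 0.001 quantile of the backgrounds was the depth index. Fold enrichment was taken there as the ratio after adding 1 to summit and to background. For the depth check, pileup and background were multiplied by the ratio of 2 indices. The overlap rule and the recovery were tested on simulated data. Python 3.11.15, numpy 2.4.6, pandas 2.3.3 and scipy 1.17.1 were used.

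Groups followed the titles, with which the stage labels agreed in every sample. No test is given: an exact permutation test of 2 against 2 libraries cannot reach a two-sided p under 0.333, and the members, lists and comparisons were chosen with earlier results of these data known. Named regions were the 8 members of best mean rank of p in both atRA lists, the 4 of best rank with both 24 hpf peaks and at least 2 antibodies gained, and 2 sites on each side of the threshold. The planned naming of members by nearest gene and the planned motif search were not run, since no genome or annotation of this build was used. Overlap, threshold, list length, anchor, depth, chromosome 4 and each library were varied.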

Additional observations from a re-analysis of the deposited data

How the results depend on the processing

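No difference between treated and control libraries changed sign under any of the alternatives run, but its size and the number of members moved. Without Raraa atRA replicate 2 the Meis2b difference, 3.41 points, was smaller than its SD of 5.85. Taking the 20000 strongest peaks of each list gave 510 sites, with 41.9 points for Hoxb1b and 26.6 for Meis2b. Weaker Raraa control peaks no longer barred a site there, so the 510 need not all be members. Requiring 50% of the anchor peak to be covered left 654, with 46.1% at 24 hpf, 36.5 points for Hoxb1b and 23.8 for Sox3. Peaks callable at the background of control replicate 1, which are the stronger ones, left 449, with 68.0% at 24 hpf. The differences were then 53.2, 33.9 and 31.5 points for Hoxb1b, Meis2b and Sox3, without a value over equally strong anchor peaks. At the background of control replicate 2 Hoxb1b was at 36.3 points. A q of at most 1e-05 for presence left 157, with 48.4% at 24 hpf and 52.5, 34.4 and 38.9 points for Hoxb1b, Meis2b and Sox3. Set for presence and absence, it gave 519 sites, with 60.2, 34.2 and 34.5 points. This setting also admits sites with a weaker Raraa control peak, so most of the 519 are not among the 1530 members. Barring control peaks within 1000 bp left 986 members, and summits within 150 bp left 918. Leaving out 1 library at a time gave 1766 to 7636 members, 40.3% to 62.9% at 24 hpf, and 13.1 to 38.6 points for Hoxb1b, 3.41 to 19.9 for Meis2b and 8.29 to 21.7 for Sox3, each of the lowest without Raraa atRA replicate 2, except the number of members, which was lowest without Raraa control replicate 1. The cause was not tested. Of the 8 named regions, 3 were kept with 50% covered, 4 with the 20000 strongest peaks and 6 with summits within 150 bp. No paired analysis was possible because the results come from no test, so there is no fit to hold a replicate block; the shares of each replicate number are given above. The planned motif search and nearest genes were not run. Of the 2 Raraa controls, depth limits absence from replicate 1 more; absence from the controls of the other antibodies was not checked against depth.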
